A study of Mus musculus with 142 samples.

Results

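C OSN site 1 (COSN1) is one of the binding sites for the pluripotency factors Oct4, Sox2 and Nanog inside ERCE C, an early replication control element of the Dppa domain in mouse embryonic stem cells (mESCs). The clones described here carry a deletion of COSN1 and of no other OSN site, on the musculus homolog only. They were chosen by their labels and column headers, which name a short deletion (COSN1, clones 2-28 and 2-33) and a longer one (COSN1.2.8k, clones 18 and 4). These clones make up 8 of the 142 samples of the series, since each clone has an early and a late S-phase fraction, and 8 of its 138 allele-specific profiles.

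Replication timing (RT) is the time in S phase at which a stretch of the genome is copied. Early replicating domains are mostly gene-rich and active, and late replicating domains mostly silent. ERCEs are cis-acting elements that are needed for a domain to replicate early, and the Dppa domain is early in mESCs and late in differentiated cells. It holds Dppa2 and Dppa4, which mark pluripotent cells, and Morc1, a gene needed for spermatogenesis.

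All clones come from F121-9 mESCs, a hybrid line with one homolog from a Mus musculus laboratory strain (genome1 in the file headers, here musculus) and one from Mus castaneus (genome2, CAST), grown in 2i and LIF medium, and each clone is a single-cell derivative made with CRISPR/Cas9. Cells were labelled with BrdU for 2 h, and RT is given as log2 of early over late reads (log2(E/L)) in 50 kb windows on each homolog, so that positive values are early. The deleted musculus allele (DEL) was compared with the CAST allele of the same clone (CON), which is unmodified, and with unmodified musculus alleles of 2 other clones. Those came from CTSS clone C4 (2 cultures, averaged) and CR11.8k clone 50, whose deletions lie on the CAST homolog of the same domain. The CON profile of clone 18 held no value on chromosome 16, so the mean CON of the other 3 clones was used for it there. The 4 DEL profiles held values in 72 to 80 of the 80 windows of chr16:46500001-50500000 (mm10). Only log2 ratios were at hand, so the depth is unknown and the error is the spread between clones.

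The guides are shown because they fix what was removed, with the PAM in capitals. Matched to mm10, each has 1 site on chromosome 16, on the minus strand.
C-OSN-1-G1: gagtaactcaggcaaaacgtTGG
C-OSN-1-G2: ggaccggccaacctcccttaAGG
C-RIGHT-G2: gatggttagctattgtgaacAGG
With Cas9 cutting 3 bases from the PAM, the first pair removes chr16:48613172-48614742, a stretch of 1571 bp with 43.0% GC. It lies in the intron of Morc1 between exon 21 (chr16:48612289-48612361) and exon 22 (chr16:48615695-48615761) in GENCODE vM21. The guide pair of the longer deletion was not given in the sources used here. Of the 31 listed guides with 1 match on chromosome 16, a single pair around COSN1 gives a length that rounds to 2.8 kb, C-OSN-1-G1 with C-RIGHT-G2. If that pair was used, the deletion runs to base 48615998, spans 2827 bp and takes a further 1256 bp that hold exon 22 of Morc1.

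The letters of COSN1 were searched on both strands for short core motifs. ATGCAAAT, the octamer read by Oct4, had 0 matches, as had TCAAGGTCA (Esrrb) and GGGTGTGGC (Klf4). These longer motifs are held by 13%, 3.16% and 1.92% of 60476 tiles of the same length on chromosome 16, so most tiles have 0 matches too. CATTGT and CTTTGT, the cores read by Sox factors, had 2 matches each, and TAATGG, a Nanog core, had 2. Of the same tiles, 67% hold CATTGT, 79.3% hold CTTTGT and 52.1% hold TAATGG. The motifs do not overlap each other in COSN1. The most matches in any 300 bases of COSN1 was 3, reached in more than a single part of the site. The stretch shown, chr16:48614136-48614435 on the plus strand of mm10, holds 3, in capitals: CTTTGT at 2 places and TAATGG near the right end. The bases from 48614422 to 48614720 also hold 3, TAATGG at both ends and CATTGT between. The stretch shown lies inside the cuts of the first guide pair and of the pair inferred for the longer deletion.
COSN1 stretch: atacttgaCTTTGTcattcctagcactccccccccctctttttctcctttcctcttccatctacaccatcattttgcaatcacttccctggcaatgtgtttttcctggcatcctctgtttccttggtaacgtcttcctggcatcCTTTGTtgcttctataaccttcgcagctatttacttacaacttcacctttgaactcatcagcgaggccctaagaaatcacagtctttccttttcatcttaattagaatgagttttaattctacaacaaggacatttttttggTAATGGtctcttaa
The further 1256 bp held 1 match each of CATTGT and CTTTGT and 0 of the other motifs.

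Without COSN1 the centre of the Dppa domain still replicated early. Over the centre (chr16:48200001-48600000), which holds the starts of Dppa4, Dppa2 and Morc1, the mean RT of the DEL alleles was 0.99 in clone 2-28, 0.97 in clone 2-33, 0.83 in clone 18 and 0.95 in clone 4. The CON alleles of clones 2-28, 2-33 and 4 were at 1.05, 0.86 and 0.97, and the unmodified musculus alleles at 0.98 and 1.02. The DEL and CON ranges overlapped, and clone 18 was the latest of the DEL alleles. All 4 DEL alleles had their highest value in the same window, centred at 48.425 Mb, at 1.21, 1.14, 1.08 and 1.05.

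**Figure D1:**
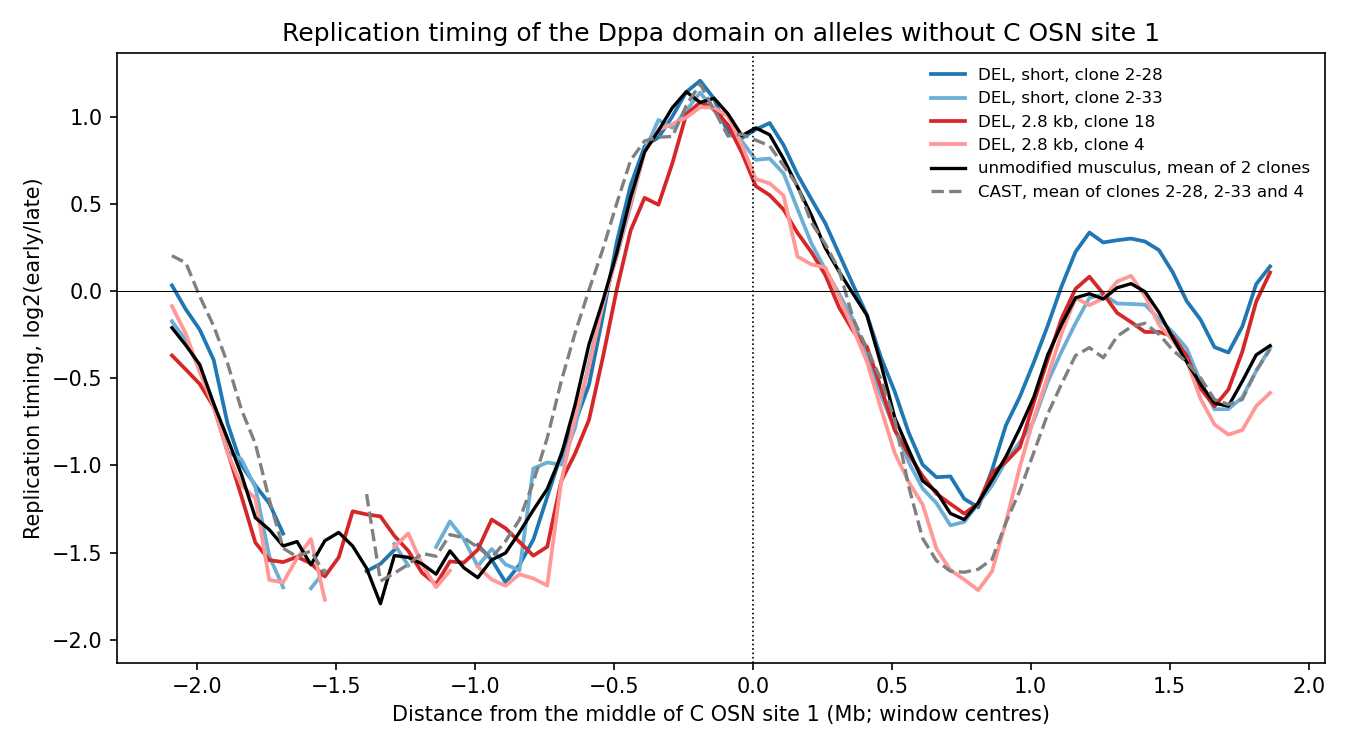
RT, as log2(E/L), in 50 kb windows against the distance from the middle of COSN1, for the 4 DEL alleles, the mean of 2 unmodified musculus alleles and the mean CAST allele of clones 2-28, 2-33 and 4; gaps are windows without a value. The peaks lie between 1.05 and 1.21 in all 4 DEL alleles, and the 2.8 kb clones run below the short-deletion clones just right of the dotted line that marks the site.

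Over the whole domain with its flanks (chr16:47500001-49500000, called the domain from here on), the difference of DEL minus CON was −0.07 in clone 2-28, 0.01 in clone 2-33, −0.14 in clone 18 and −0.15 in clone 4, over 36 windows with a value in all of them. The mean was −0.09 ± 0.07 (SD, n = 4), and 3 of 4 clones were below 0. Without clone 4 the mean was −0.06. An exact two-sided sign-flip test, with p the share of sign patterns whose mean is at least as far from 0, gave p = 0.25 for n = 4, where 0.13 is the smallest p that 4 clones allow. With the mean of all 50 unmodified CAST profiles as CON for every clone, the difference was −0.21 (exact p = 0.13). By clone it was −0.10, −0.17, −0.26 and −0.31 in clones 2-28, 2-33, 18 and 4. Against the same CAST mean, the unmodified musculus alleles of clones C4 and 50 were at −0.11 and −0.12. The −0.21 thus also holds a difference between homologs that is present without the deletion. With each clone's own CON, the mean over the 3 clones that have one was −0.07 (exact sign-flip p = 0.50, n = 3). The CON of clone 18 is drawn from those 3 clones, so its difference is not independent of theirs. This also holds for the limma fits of DEL minus CON on chromosome 16. The rank of the CON alleles of these clones among those of the series differed between intervals. Over the domain those of clones 2-28, 2-33 and 4 ranked 13th, 4th and 8th from the latest of 50. They were at −0.16, −0.27 and −0.23, against a median of −0.11. The profiles held 33 to 40 windows there, so these levels are not over the same windows. Over the 20 windows of chr16:48000001-49000000, which held a value in all 50 profiles, they ranked 37th, 7th and 15th from the latest, at 0.77, 0.53 and 0.62 for clones 2-28, 2-33 and 4, against a median of 0.71 and a range from 0.41 to 1.01.

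Window by window, the DEL alleles differed from CON in 33 of 72 tested windows of the 4 Mb around it (chr16:46500001-50500000) (45.8%; limma, Benjamini-Hochberg p under 0.05), 17 later and 16 earlier. Across the autosomes, the same fit of these clones called 29.5% of 41964 windows, nearly all of them far from the deletion. The called windows formed 3 runs, none of which held COSN1. DEL alleles were later than CON over chr16:46500001-46900000 (8 windows, mean −0.38) and over chr16:47750001-48200000 (9 windows, mean −0.41), the left edge of the domain. They were earlier than CON over chr16:49200001-50000000 (16 windows, mean 0.32), a run that starts in the right flank of the domain and continues beyond it. The domain mean of DEL minus CON thus averages later windows on the left with earlier ones on the right.

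The unmodified musculus alleles lay on the same side of CAST in most of these windows. Both were later than the mean CAST profile in 17 of the 17 later windows, and both earlier in 12 of the 16 earlier ones. At the left edge (chr16:47800001-48200000) the DEL alleles were at −0.51, −0.45, −0.72 and −0.62 in clones 2-28, 2-33, 18 and 4, the unmodified musculus alleles at −0.46 and −0.44, and the CON alleles of clones 2-28, 2-33 and 4 at −0.10, −0.16 and −0.19. The musculus alleles, deleted or not, did not overlap the CON alleles there. Clone 2-33 lay between the unmodified musculus alleles, and the other 3 clones were later than both, the 2.8 kb clones most.

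**Figure D2:**
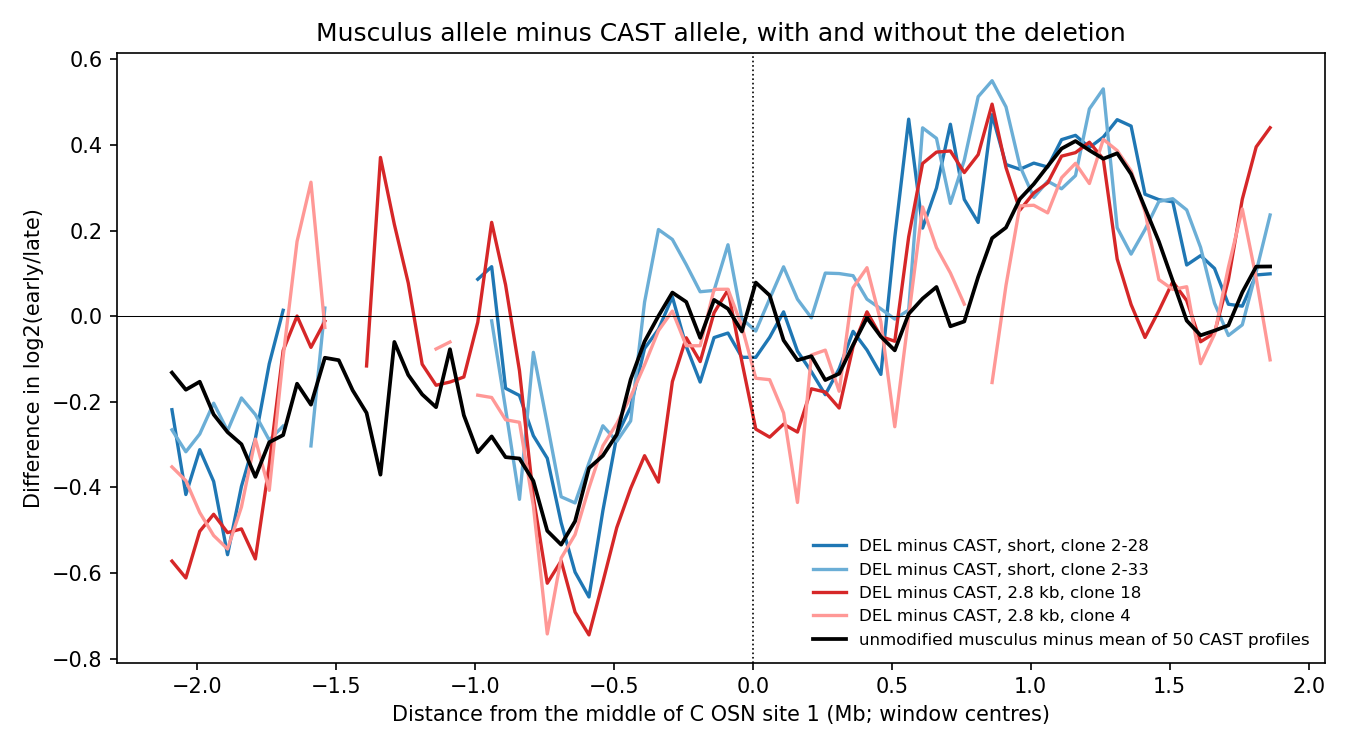
Difference in log2(E/L) between the musculus and the CAST allele in 50 kb windows against the distance from the middle of COSN1, for each clone with the deletion (CAST allele of the same clone; mean of the other 3 for clone 18) and for the mean of 2 unmodified musculus alleles (against the mean of 50 CAST profiles). The black line of the unmodified alleles follows the dip at the left edge, where the called DEL windows average −0.41, and part of the rise at the right.

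Set against unmodified musculus alleles, a comparison that leaves out the difference between homologs, no window was called around the domain. Of 78 windows tested there, 0 passed the adjusted threshold and 1 had an unadjusted limma p under 0.05. Across the autosomes 0% of 44621 windows were called, and 1479 had an unadjusted p under 0.05. Over the domain (39 windows), RT was −0.20 in clone 2-28, −0.27 in clone 2-33, −0.36 in clone 18 and −0.41 in clone 4. The unmodified alleles of clones C4 and 50 were at −0.21 and −0.23. Clone 2-28 was the earliest of the 6 alleles, and the other 3 DEL alleles were later than both unmodified ones. The difference in means was −0.09 (exact permutation p = 0.33, two-sided, n = 4 and 2, smallest possible 0.067), and −0.06 without clone 4.

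Split by deletion, the short deletion was close to the unmodified musculus alleles and the 2.8 kb deletion was later. The mean of the short-deletion clones differed from that of the unmodified alleles by −0.02 (exact permutation p = 1, n = 2 and 2), by 0.02 without clone 2-33 and by −0.05 without clone 2-28. The mean of the 2.8 kb clones differed by −0.16 (exact permutation p = 0.33, n = 2 and 2), with both clones later than both unmodified alleles. With each profile centred on its autosomal median, the differences were −0.03 for the short and −0.13 for the 2.8 kb deletion. The limma fits of each pair called 0% of 41275 and 0% of 42448 windows, with 2844 and 536 windows at an unadjusted p under 0.05. With 2 clones against 2, no exact p can be under 0.33.

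The direct comparison of the short with the 2.8 kb deletion gave the same order. Over the domain the short-deletion clones averaged −0.23 ± 0.05 and the 2.8 kb clones −0.38 ± 0.03 (SD, n = 2 each), a difference of 0.15 with no overlap (exact permutation p = 0.33, n = 2 and 2). The autosomal medians were −0.02 and −0.03 in clones 2-28 and 2-33, and −0.06 and −0.08 in clones 18 and 4. With each profile centred on its autosomal median the difference was 0.095. Each median was taken over the windows that its own profile held. Over windows compared in all 4 clones, the mean difference was −0.01 on the other autosomes, so no offset of this direction was seen there. Window by window, limma called 0 of 70 windows around the domain and 0% of 40004 autosomal windows, with 1 and 238 at an unadjusted p under 0.05. Both short-deletion clones were earlier than both 2.8 kb clones in 27 of those 70 windows (38.6%) and later than both in 1. Genome-wide, both were earlier in 10.1% of 40004 windows, and on chromosome 16 outside this stretch in 14.4% of 1489 windows.

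Of the stretches averaged here, the difference was greatest at COSN1 and just to its right, over the 4 windows of chr16:48600001-48800000, an interval chosen after the curves were seen. Single windows at the left edge differed by more, up to 0.50. In the window of COSN1 itself (chr16:48600001-48650000) RT was 0.93 in clone 2-28 and 0.75 in clone 2-33 against 0.60 in clone 18 and 0.64 in clone 4. The unmodified musculus alleles were at 0.91 and 0.96 in this window. In the next window (chr16:48650001-48700000) the short-deletion clones were at 0.96 and 0.76, and the 2.8 kb clones at 0.55 and 0.62. Clone 2-28 was within or above the range of the unmodified musculus alleles in these windows, clone 2-33 lay between, and the 2.8 kb clones were the latest.

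Averaged over the 4 windows, RT was 0.85 and 0.66 in clones 2-28 and 2-33, and 0.49 and 0.50 in clones 18 and 4. The unmodified musculus alleles were at 0.78 and 0.82. The short deletion minus the 2.8 kb deletion was 0.26 (exact permutation p = 0.33, n = 2 and 2). As DEL minus CON the difference was 0.25, with −0.05 and 0.04 in clones 2-28 and 2-33 and −0.27 and −0.24 in clones 18 and 4. With each profile centred on its autosomal median it was 0.21. The 2.8 kb clones were later than the unmodified musculus alleles by 0.30, and the short-deletion clones by 0.04. The limma estimate for the single windows was 0.22 ± 0.17, 0.28 ± 0.17, 0.25 ± 0.17 and 0.30 ± 0.18 (SE), and the adjusted p was 1 in each of the 4. Each COSN1 clone was profiled once. Over these windows the unmodified CAST allele of COSN123 clone A10 was at 1.03, 0.49, 0.61 and 0.96 in its 4 cultures. That of CTSS clone C12 was at 0.83 and 1.17 in 2 cultures. On the CAST alleles of other clones, repeat cultures differed by less than 0.26. The part of this variation in the difference between the deletions was not tested.

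**Figure D3:**
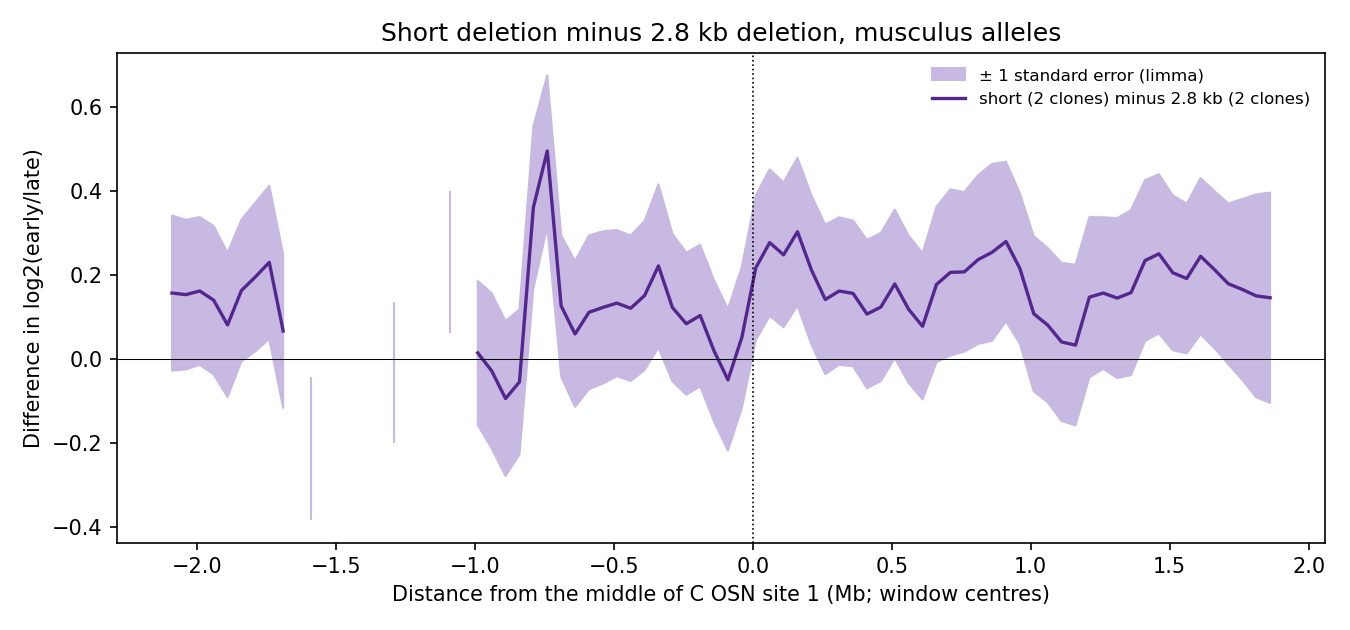
Short deletion (2 clones) minus 2.8 kb deletion (2 clones) in log2(E/L) of the musculus allele, per 50 kb window, against the distance from the middle of COSN1 (dotted line), with ± 1 SE from limma. Right of the site the estimate reaches 0.30 with an SE of 0.18, and at the left edge of the domain it reaches 0.50; 0 of the 70 tested windows passed the adjusted threshold.

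The order of short above 2.8 kb was not limited to the site. The mean difference was 0.19 over the left edge, 0.09 over the centre and 0.17 over chr16:49500001-50500000, right of the domain. It was 0.02 on the rest of chromosome 16 and −0.01 on the other autosomes, with an SD over windows of 0.14 and 0.15. The clones of one deletion also differed from each other: in that last stretch clone 2-28 was earlier than clone 2-33 by 0.35 on average, and over the centre clone 18 was later than clone 4 by 0.12. Outside chromosome 16, Pearson's r across windows was 0.99 between clones 2-33 and 4, which carry different deletions, 0.97 between the short-deletion clones and 0.94 between the 2.8 kb clones. Windows are not independent replicates. The part of this clonal variation in the difference between the deletions was not tested.

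The early segment, read as the stretch around the peak with RT above 0, was narrowest in clone 18 among the COSN1 and unmodified musculus alleles. Clone 4 was close to clone 2-33. With 50 kb windows smoothed over 300 kb, gaps of a few kb cannot be resolved. It measured 893 and 831 kb in clones 2-28 and 2-33, 776 and 826 kb in clones 18 and 4, and 901 and 868 kb on the unmodified musculus alleles. On the right, RT crossed 0 at 48.985 and 48.919 Mb with the short deletion, at 48.900 and 48.915 Mb with the 2.8 kb deletion, and at 48.983 and 48.955 Mb on the unmodified musculus alleles. Of these musculus alleles, those of the 2.8 kb clones crossed 0 furthest left, though by as little as 4 kb from clone 2-33. The CON alleles of clones 2-28, 2-33 and 4 crossed 0 at 49.002, 48.883 and 48.942 Mb. The CON allele of clone 2-33 thus crossed left of both 2.8 kb clones. The widths of these CON alleles were 998, 844 and 910 kb.

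Larger deletions that include COSN1 were set beside it as DEL minus CON per clone, all against the same 4 COSN1 clones. COSN12 lacks the second OSN site as well (3 clones), COSN123 all 3 sites of ERCE C (1 clone, 4 cultures averaged), and CR13.4k a stretch of the right side of ERCE C with these sites (2 clones). COSN12 and COSN123 were made by further deletion in a COSN1 line, per the study's text, and the parent clone is not given in the sources used here. The tests treat all clones as independent and take no account of this shared descent. Over the domain the COSN12 clones were at −0.20, −0.25 and −0.34, the COSN123 clone at −0.40 and the CR13.4k clones at −0.30 and −0.30, all later than each of the COSN1 clones (−0.15 to 0.01). The difference from COSN1 was −0.18 for COSN12 (exact permutation p = 0.029, n = 3 and 4, adjusted over the 3 pairs 0.086), −0.31 for COSN123 (exact p = 0.20, n = 1 and 4) and −0.21 for CR13.4k (exact p = 0.067, n = 2 and 4). Each p was the smallest its numbers allow, and none of the adjusted values (0.086, 0.20 and 0.10) passed 0.05. On the DEL alleles alone, the domain-wide difference was 0.06 for COSN12, 0.04 for CR13.4k and −0.20 for COSN123, so that for the first 2 it turned direction.

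At the site and right of it the order held on the DEL alleles alone. Over the same 4 windows COSN12 clones were at 0.32, 0.48 and 0.33, CR13.4k clones at 0.18 and 0.45, and COSN123 at −0.15. All of these were below the 2.8 kb clones, the nearest of them, COSN12 clone C6, by less than 0.01, and below the short-deletion clones. On the DEL alleles COSN12 differed from COSN1 by −0.25 (exact permutation p = 0.11, n = 3 and 4), and as DEL minus CON by −0.49 (exact permutation p = 0.029, adjusted over the 3 pairs 0.086). These 4 windows were chosen after the curves were seen, so these p-values do not stand as planned tests. In the fit across windows COSN12 was later than COSN1 in 2 of 67 tested windows around the domain, chr16:48700001-48750000 (−0.71 ± 0.11 SE, limma adjusted p = 0.018) and chr16:48800001-48850000 (−0.49 ± 0.09 SE, adjusted p = 0.042), against 0.511% of 34644 windows across the autosomes. Leaving out 1 clone gave 0 to 3 called windows (0.142% to 0.716% across the autosomes), with 0 without clone 2-28, 2-33 or B6. On the DEL alleles alone 1 of 69 windows (1.45%) was called, a share below the 4.11% across the autosomes. COSN123 and CR13.4k had 0 called windows in the same stretch (16 and 18 at an unadjusted p under 0.05), against 0.0144% and 0% across the autosomes. In the first of the COSN12 windows COSN123 differed from COSN1 by −0.97. COSN123 is 1 clone, which the fit assumes to vary like the clones of the other groups, so its count of called windows leaves out its own spread between clones.

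**Figure D4:**
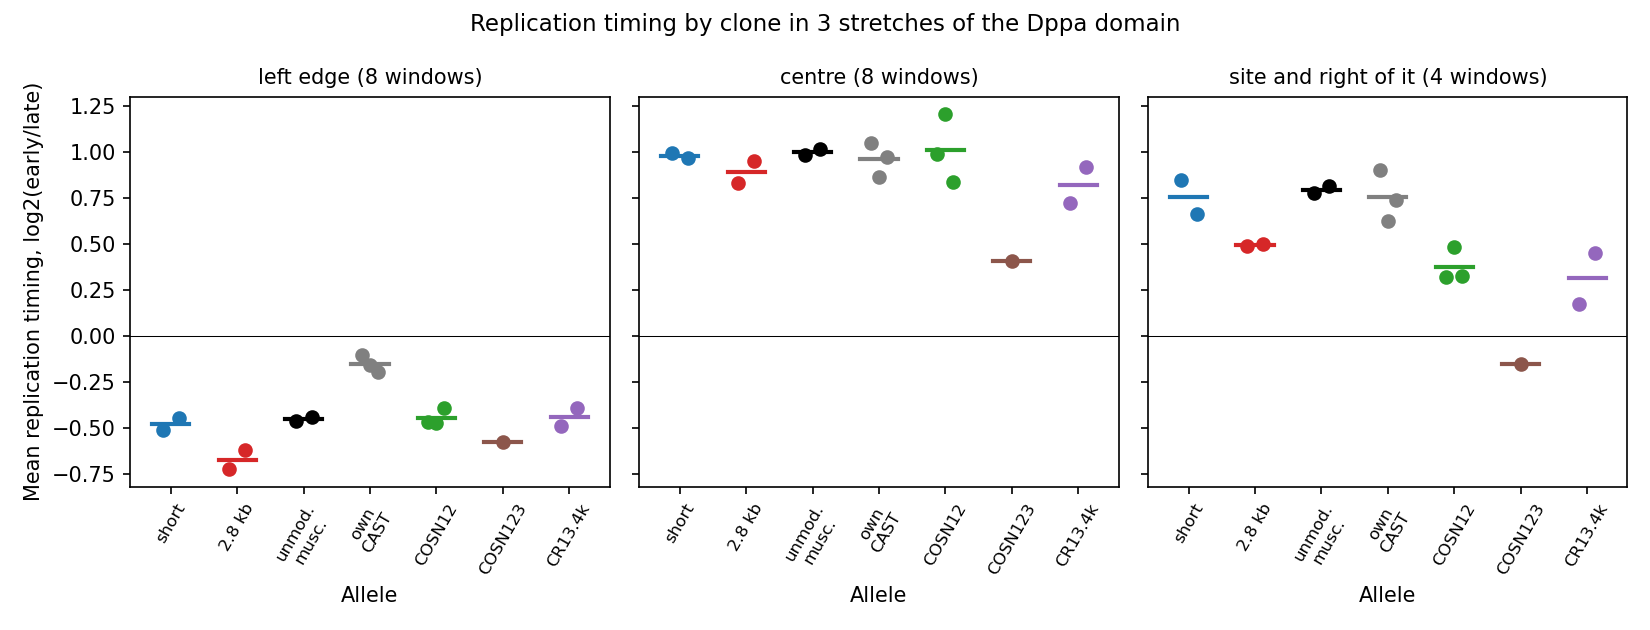
Mean log2(E/L) of each clone (points) and the group mean (bars) at the left edge (8 windows), in the centre (8 windows) and over the 4 windows at COSN1 and right of it; short and 2.8 kb are the DEL alleles, and CAST is the unmodified allele of clones 2-28, 2-33 and 4. At the left edge all musculus alleles lie below CAST; right of the site the 2.8 kb clones, at 0.49 and 0.50, lie between the unmodified musculus alleles and COSN123, at −0.15.

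At gene starts, read from the 50 kb window that holds each, 14 protein-coding genes of the 4 Mb around the domain were measured in all 4 clones. Against CON, 0 were later and 2 earlier (limma, adjusted p under 0.05), with a median difference of −0.05, beside −0.01 over all windows tested. The 2 called starts of 14 stand beside 29.5% of all windows called. Against unmodified musculus alleles 0 were called, with a median of −0.11 beside −0.02 over all windows. Short minus 2.8 kb was above 0 at all 14 starts, which share windows and smoothing, with a median of 0.15 beside −0.01 over all windows, and 0 were called.

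Dppa4, which encodes a chromatin-associated partner of Dppa2, was at 0.88, 0.98, 0.49 and 0.92 in clones 2-28, 2-33, 18 and 4. Clone 18 stood apart from the other 3, and the difference from CON was −0.06 ± 0.24 (SD, n = 4). Dppa2 was at 1.00, 0.94, 0.73 and 0.96 in the same order, with clone 18 again the latest, and a difference of 0.02 ± 0.14 (SD, n = 4). The start of Morc1, whose intron holds COSN1, was at 1.21, 1.14, 1.08 and 1.05, against 1.14 and 1.02 on unmodified musculus alleles. These ranges overlapped.

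The starts with the most negative difference lay right of COSN1. Trat1, a transmembrane adaptor of T cells, was at 0.67 and 0.47 with the short and at 0.33 and 0.20 with the 2.8 kb deletion, against 0.57 and 0.63 on unmodified musculus alleles. Its difference from CON was −0.19 ± 0.21 (SD, n = 4; limma adjusted p = 0.13). Retnlb and Retnla, secreted resistin-like proteins whose starts share 1 window, were at 0.53, 0.27, 0.22 and 0.15 in clones 2-28, 2-33, 18 and 4, a difference of −0.10 ± 0.07 (SD, n = 4; adjusted p = 0.28). The starts with the most positive difference lay outside the domain. Cd47, an integrin-associated surface protein, was earlier than CON by 0.40 ± 0.07 (SD, n = 4; limma adjusted p = 0.0012), and Ift57, a protein of ciliary transport, by 0.30 ± 0.05 (SD, n = 4; adjusted p = 0.0044). Against unmodified musculus alleles Cd47 differed by 0.09 and Ift57 by −0.03, and neither was called. Bbx, an HMG-box protein, differed from CON by 0.17 ± 0.15 (SD, n = 4; adjusted p = 0.11).

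The cell type was not checked by expression, since no expression values were analysed. At the starts of 10 pluripotency factors, Oct4 (Pou5f1), Sox2 and Nanog among them, all 40 values of the 4 DEL profiles were above 0, from 0.49 to 1.89. The autosomal medians of these profiles lay between −0.08 and −0.02. The share of other gene starts above 0 was not measured, so these values do not identify the cell type. Against CON 0 of the 10 starts were called, beside 29.5% of all windows. In the comparisons with unmodified musculus alleles and between the deletions 0% of all windows were called, so the starts add nothing there.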

How the data were processed

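The table held log2 values of early over late reads per homolog, which the authors deposited after trimming (Trim Galore, cutadapt), alignment to N-masked mm10 with bowtie2, allele assignment with SNPsplit, duplicate removal, counting in windows with bedtools, scaling, quantile normalization and loess smoothing over 300 kb. Versions are not given in the sources used here. Smoothing spans 6 windows, so neighbouring windows are not independent. The table covers 49264 windows on 19 autosomes, and all 138 columns were matched to samples.

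Clones were the replicates. Fits across all windows used limma 3.58.1 in R 4.3.3, with Benjamini-Hochberg adjustment and a threshold of 0.05. Windows needed values in 3 clones (DEL minus CON) or 2 per group (1 for COSN123). Interval means used windows with a value in every profile compared, and two-sided exact tests. Scripts were tested on simulated data. Sequences and genes came from GRCm38.p6 and GENCODE vM21, and guides from the study's list. Named genes were Dppa4, Dppa2, Morc1 and the 3 largest and 3 smallest mean differences among protein-coding starts in the 4 Mb around the domain. Clones, lists and tests were chosen with earlier results of these data known. Repeat runs and cultures of a clone were averaged.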

Additional observations from a re-analysis of the deposited data

How the results depend on the processing

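Of 127 alternatives fixed with the design, 112 kept the direction, the side of the threshold and, for shares of called windows, a value within 1.5 times, and 42 of 44 added later did so too. The side of the threshold was fixed in advance for most mean differences, where only the direction could change. Apart from the unadjusted p of COSN12 and from cultures as units, no exact p could fall under 0.05. The alternatives were other intervals, 1 window in 6, interpolated windows, centred profiles, other controls, cultures as units and leaving out 1 clone. On the DEL alleles alone the mean difference from COSN1 was 0.058 for COSN12 and 0.037 for CR13.4k, which turned the direction. The COSN12 share of called windows was 2.99%, beside 0.511% of all windows. It was 0% with 1 window in 6 (0.399% of all windows) and with interpolated windows (0.0898%). On the DEL alleles alone it was 1.45%, below the 4.11% of all windows. With the 3 COSN1 clones that have their own CAST values it was 1.52% (0.303% of all windows). When 1 clone was left out it was 0% to 4.48% (0.142% to 0.716% of all windows). Without clone 2-28, 2-33 or B6 it was 0%, and without clone 18 or 4, 1.52%, so 1 clone decides whether COSN12 windows are called. For COSN123 the share rose from 0% to 1.25% with interpolated windows. With its 4 cultures as units, which are not separate clones, the share was 7.46% and the mean difference −0.342 (exact permutation p = 0.029, adjusted 0.043). The short deletion minus unmodified musculus was 0.021 without clone 2-33. For the 2.8 kb deletion the share of called windows shifted without clone 18, in a fit that leaves 1 clone. Its mean difference from unmodified musculus was then −0.188. The cause of these shifts was not tested. No paired analysis was possible because the COSN1 clones carry no replicate number; both homologs of a clone were already paired in DEL minus CON.

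Depth was not at hand, and the number of clones sets the limits: no exact test of 2 against 2 clones can fall under p = 0.33. At 50 kb and with smoothing over 300 kb, a change that spans less than a few windows cannot be placed, and the deletions themselves cannot be seen.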

Other observations

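Right of the Dppa domain, over chr16:49650001-50050000, RT of the DEL alleles was 0.19 in clone 2-28, −0.17 in clone 2-33, −0.13 in clone 18 and −0.10 in clone 4, and the CON alleles of clones 2-28, 2-33 and 4 were at −0.21, −0.48 and −0.43. The DEL alleles, given against the mean of 50 unmodified CAST profiles, were earlier by 0.63 in clone 2-28, 0.27 in clone 2-33, 0.31 in clone 18 and 0.34 in clone 4. The unmodified musculus alleles were earlier by 0.50 in clone C4 and 0.22 in clone 50, so the ranges overlapped and clone 2-28 was the earliest of the 6. In the same interval DEL minus the CON of the same clone was 0.40, 0.31, 0.24 and 0.33 (mean 0.32 ± 0.06 SD, n = 4, the CON of clone 18 taken from the other 3).

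In the stretch just left of the domain, chr16:46500001-47500000, the DEL alleles were later than the mean CAST profile by 0.10 in clone 2-28, 0.25 in clone 2-33, 0.31 in clone 18 and 0.24 in clone 4, over 11 windows with a value in each. The unmodified musculus alleles were later by 0.18 and 0.26, within that range.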
